A study of Caenorhabditis elegans with 8 samples.

Results

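The F-box A genes of Caenorhabditis elegans were taken as every gene whose name starts with fbxa- in the deposited tables, which gave 190 genes of 20541, the same 190 in both tables. In the WBcel235 gene annotation 170 of them are protein-coding and 20 are pseudogenes. An F-box is a short protein domain that binds the adaptor Skp1, called SKR in worms, and so joins a cullin ubiquitin ligase known as an SCF complex. The rest of the F-box protein holds the substrate that the ligase marks with ubiquitin. F-box A proteins pair the F-box with a domain named after FOG-2, a germline F-box protein that acts with the RNA-binding protein GLD-1 to let hermaphrodites make sperm. The family is greatly expanded in this nematode, its sequences diverge fast, and a part in defence against foreign proteins has been proposed for it, while the substrates of most members are unknown.

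Whole young adult worms of 2 strains, synchronized by a timed egg lay, gave polyadenylated RNA for sequencing. The strains were HC125 and the wild type N2, and the series design names Psid-1::gfp and wild-type worms, so HC125 was read as the strain with the sid-1 promoter driving green fluorescent protein. No label gives the genetic background of HC125, the number of transgene copies or the cells in which the promoter acts. Each strain had 2 libraries in a paired-end experiment without strand information and 2 in a single-end stranded experiment, 8 in all. The deposited tables hold 1 FPKM value (fragments per kilobase, scaled to library size) per gene, strain and experiment, pooled over the 2 libraries. No spread between libraries can therefore be given, the depth is unknown, and the errors printed below are those implied by the authors' test statistic. The check gene sid-1 had 2.11 FPKM in HC125 and 31.9 FPKM in N2 in paired-end libraries, and single-end values of 0.818 FPKM in HC125 and 12.9 FPKM in N2. In whole worms a lower level per cell and fewer cells that express a gene cannot be told apart.

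Fewer F-box A genes were expressed than genes at large, and most of those expressed were at low levels. A gene was counted as expressed where at least 1 strain had 1 FPKM or more. In paired-end libraries 89 of 190 members were expressed, or 46.8%, beside 63.5% of all 20541 genes. In single-end libraries 59 members were expressed, or 31.1%, beside 56.6% of all genes. Each of these 59 was also among the 89, so 30 members reached the limit in paired-end libraries alone. These shares are descriptions of gene lists and carry no test.

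The gap between the family and all genes was wider at 10 FPKM than at 0.1 FPKM. At 0.1 FPKM or more, 72.6% of members and 81.9% of all genes were listed in paired-end libraries, and 62.1% and 77.8% in single-end libraries. At 10 FPKM or more these shares were 11.6% and 38.3% in paired-end libraries, and 4.74% and 33.5% in single-end libraries. The median over all 190 members was 0.643 FPKM in HC125 and 0.640 FPKM in N2 in paired-end libraries, where the median of all genes was 3.26 and 3.28 FPKM. In single-end libraries the members' median was 0.219 FPKM in HC125 and 0.218 FPKM in N2, where that of all genes was 1.66 and 1.67 FPKM. The family's median thus hardly differed between strains while lying well below that of all genes. Among expressed members alone the paired-end median was 3.51 FPKM in HC125 and 3.57 FPKM in N2, against 16.8 and 17.5 FPKM for all expressed genes.

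Members listed at 0 were about as frequent as such genes elsewhere. Both tables held 18 members, or 9.47%, listed at 0 in both strains, beside 9.78% of all genes in paired-end and 11% in single-end libraries. The 12 members listed at 0 in all 4 values were fbxa-17, fbxa-22, fbxa-40, fbxa-56, fbxa-75, fbxa-148, fbxa-159, fbxa-160, fbxa-165, fbxa-208, fbxa-213 and fbxa-221 (named after their values were seen). Coding members were expressed in 83 of 170 cases (48.8%) in paired-end and 54 (31.8%) in single-end libraries. Of the 20 annotated pseudogenes 6 and 5 were expressed. The most abundant was fbxa-203 on chromosome I, at 18.1 FPKM in HC125 and 16.4 FPKM in N2 and then at 10.3 FPKM in HC125 and 10.6 FPKM in N2 in single-end libraries. Reads can be shared by near-identical members, and 30 members overlap another annotated protein-coding gene or pseudogene. Overlaps with non-coding RNA genes were not counted. Without those 30 the expressed share was 50.6% and 35.0% of 160.

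The limit of 1 FPKM cuts through a dense range of values. Just inside it in paired-end libraries lay fbxa-3, at 0.892 FPKM in HC125 and 1.07 FPKM in N2, and just outside lay fbxa-15, at 0.565 FPKM in HC125 and 0.928 FPKM in N2. In single-end libraries fbxa-57 was just inside, at 0.864 FPKM in HC125 and 1.01 FPKM in N2, and fbxa-54 just outside, at 0.553 FPKM in HC125 and 0.986 FPKM in N2.

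**Figure D1:**
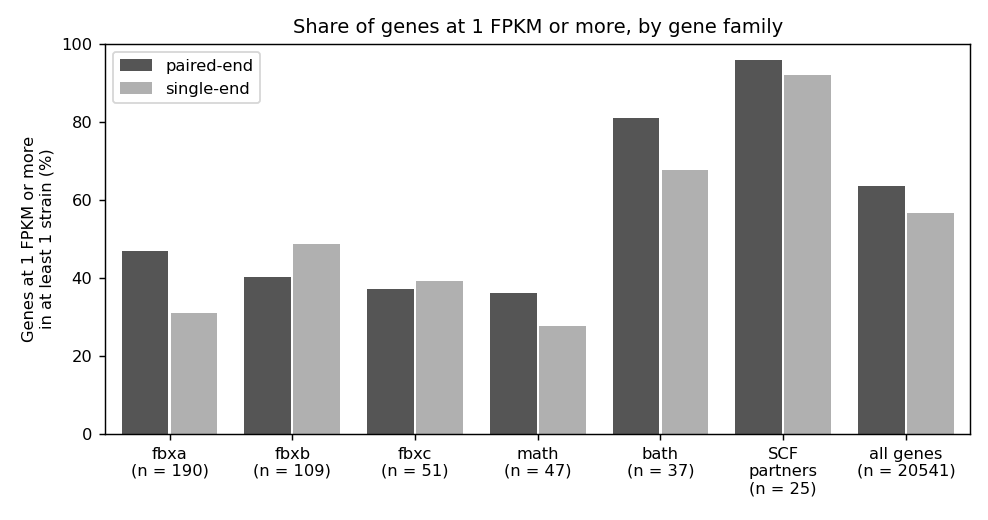
Share of genes at 1 FPKM or more in at least 1 strain (vertical axis, %) in the F-box A family, 4 other adaptor families, the SCF partner genes and all genes, with 1 bar for the paired-end and 1 for the single-end experiment. The F-box A bars stand at 46.8% and 31.1%, below the bars of all genes at 63.5% and 56.6%.

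A single gene held a large part of the family's RNA. fbxa-215 on chromosome IV had 322 FPKM in HC125 and 317 FPKM in N2 in paired-end libraries, and single-end values of 144 FPKM in HC125 and 131 FPKM in N2. It made up 30.7% of the family's summed FPKM in HC125 and 30.1% in N2 in paired-end libraries, and 25.6% and 24.2% in single-end libraries. The ratio of HC125 over N2 was 1.02 (95% interval 0.579 to 1.78) and 1.10 (0.795 to 1.53), so both intervals span equal levels.

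The next members lay well below it. fbxa-101 on chromosome I had 73.2 FPKM in HC125 and 69.2 FPKM in N2, and single-end values of 64.7 FPKM in HC125 and 59.6 FPKM in N2. fbxa-210 on chromosome V had 64.0 FPKM in HC125 and 68.7 FPKM in N2, and single-end values of 55.3 FPKM in HC125 and 59.2 FPKM in N2. fbxa-206, also on chromosome V, had 51.7 FPKM in HC125 and 53.9 FPKM in N2, and single-end values of 52.2 FPKM in HC125 and 52.0 FPKM in N2. For these 3 genes the strains stood close together in each experiment. fbxa-72 had 36.0 FPKM in HC125 and 36.8 FPKM in N2 in paired-end libraries, but 7.19 FPKM in HC125 and 6.77 FPKM in N2 in single-end libraries. fbxa-114 had 33.3 FPKM in HC125 and 31.1 FPKM in N2, and single-end values of 7.97 FPKM in HC125 and 8.20 FPKM in N2. fbxa-106 had 20.1 FPKM in HC125 and 18.9 FPKM in N2, and single-end values of 11.8 FPKM in HC125 and 13.1 FPKM in N2. The last 3 genes differed more between experiments than between strains. The same held for fbxa-215 and, by smaller margins, for fbxa-101 and fbxa-210. No role of these 7 proteins is given in the sources used here.

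The 8 members of highest mean FPKM, which are these 7 and fbxa-192, held 58.4% of the family's summed FPKM in HC125 and 59.3% in N2 in paired-end libraries, and 64.8% and 62.4% in single-end libraries. Leaving out fbxa-192, their ratios of HC125 over N2 ran from 0.932 to 1.07 in paired-end and from 0.898 to 1.10 in single-end libraries. The order of the members by level was nearly kept. Spearman's rho of the 190 levels in HC125 and N2 was 0.98 in paired-end and 0.96 in single-end libraries, and between experiments it was 0.94 in each strain. These are correlations across genes, given as a description without a p.

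**Figure D2:**
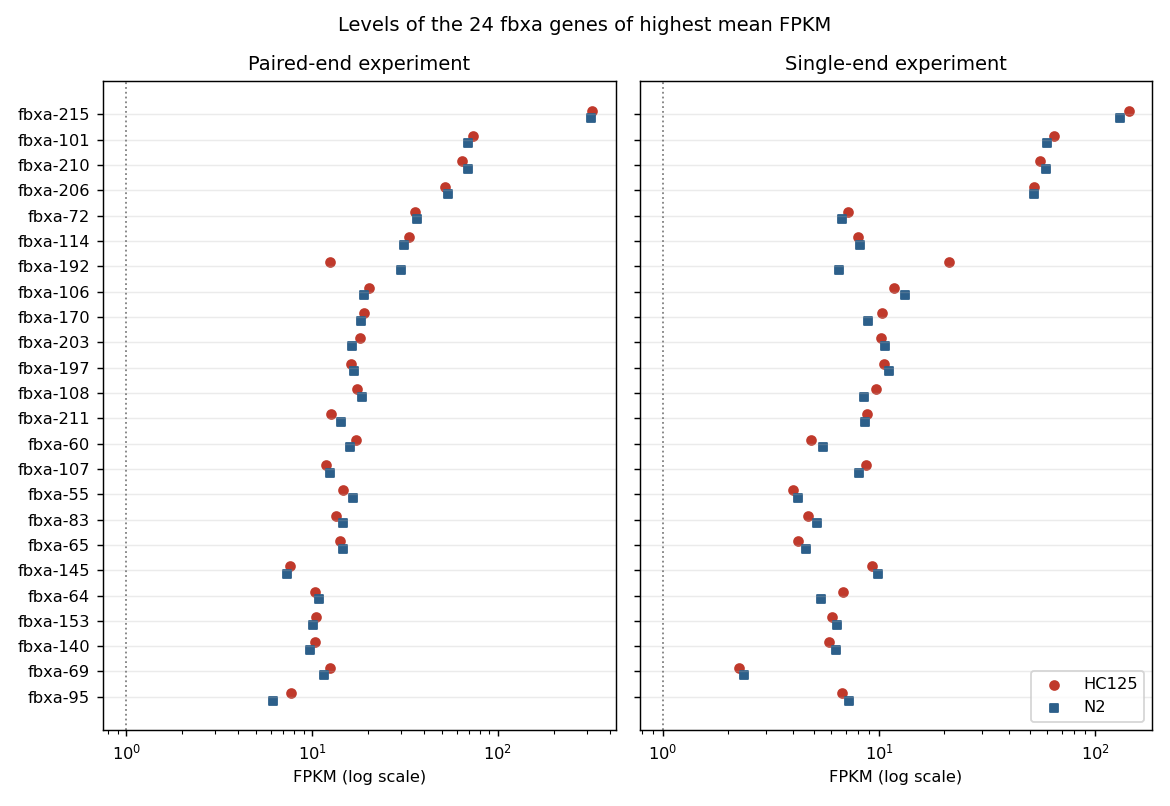
FPKM (log axis) of the 24 members of highest mean FPKM in each experiment, with a circle for HC125 and a square for N2, each the pooled value of 2 libraries. The dotted line marks 1 FPKM, and the symbols stand furthest apart for fbxa-192, with 12.4 FPKM in HC125 and 30.02 FPKM in N2 on the paired-end side, and 21.05 FPKM in HC125 and 6.55 FPKM in N2 on the single-end side.

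The levels showed little relation to gene size. The coding length of the 170 coding members had a median of 943.5 bases (quartiles 903 and 1095), beside 993 over all coding genes, and the median number of exons was 4, beside 5. Spearman's rho of coding length and N2 level was 0.07 in paired-end and 0.11 in single-end libraries, across genes and as a description.

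Most members lie on the arms of chromosomes III and V. The files place 74 members on chromosome V, where 60 start beyond 15 Mb, and 68 on chromosome III, where 63 start before 2.5 Mb. The remaining members lie on chromosomes II (19), X (17), I (7) and IV (5). On chromosome III 34 of 68 members were expressed in paired-end and 19 in single-end libraries, or 50% and 27.9%, beside 78.4% and 71.5% of all genes of that chromosome. On chromosome V 32 and 24 of 74 were expressed, or 43.2% and 32.4%, beside 46.5% and 40.6% of all its genes. The family's share thus lay further below that of the whole chromosome for chromosome III than for chromosome V, a difference for which no test was made. The share among genes of the arms alone was not computed.

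**Figure D3:**
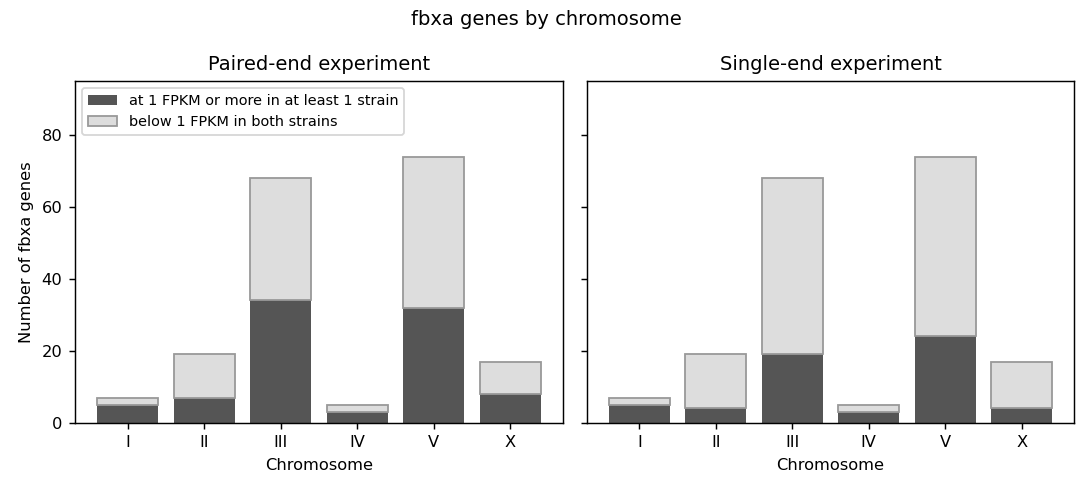
Number of F-box A genes on each chromosome (bars), split into those at 1 FPKM or more in at least 1 strain (dark) and those below it in both strains (light), in the paired-end (left) and single-end (right) experiment. Chromosome V has 32 and 24 dark of 74 and chromosome III 34 and 19 dark of 68.

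Members tend to lie side by side. When members no more than 20 kb apart were joined, 135 members fell into 27 groups of at least 2 and 55 stood alone. The largest group holds 30 members at III:1236015-1349420, of which 15 were expressed in paired-end and 9 in single-end libraries, with no member above 5.85 FPKM. A group of 16 at III:2217204-2314073 had 5 and 1 expressed members. A group of 11 at III:933464-963526 had 8 and 5. Within this last group fbxa-55 had 14.7 FPKM in HC125 and 16.6 FPKM in N2 in paired-end libraries, while fbxa-56, the member next to it, was listed at 0 throughout. The implied error of fbxa-55 on the log2 scale was large, at 1.24 in paired-end and 1.36 in single-end libraries. The medians for tested members were 0.84 and 0.62. How reads were divided between these neighbours was not tested. A group of 9 at II:1606590-1624672 had no expressed member in either experiment and no value above 0.441 FPKM.

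Small groups on chromosome V held some of the more abundant members. In the group at V:18123977-18128881 all 3 genes were expressed. fbxa-107 had 11.8 FPKM in HC125 and 12.5 FPKM in N2, and single-end values of 8.68 FPKM in HC125 and 8.07 FPKM in N2. fbxa-211 had 12.6 FPKM in HC125 and 14.3 FPKM in N2, and single-end values of 8.78 FPKM in HC125 and 8.65 FPKM in N2, so both lay well below their neighbour fbxa-210, described above. A group of 4 at V:20187710-20204503, made of fbxa-116, fbxa-115, fbxa-114 and fbxa-113, is interrupted between fbxa-115 and fbxa-114 by ftr-1 and by fog-2, which gave the family's second domain its name. fog-2 had 61.6 FPKM in HC125 and 58.8 FPKM in N2, and single-end values of 25.4 FPKM in HC125 and 26.3 FPKM in N2. ftr-1, named for its relation to fog-2, had 30.8 FPKM in HC125 and 29.1 FPKM in N2, and single-end values of 11.6 FPKM in HC125 and 11.1 FPKM in N2. In the authors' deposited tables fog-2 had p = 0.824 and p = 0.780.

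Of all members, fbxa-192 alone was called between strains, and in single-end libraries only. A call was a q of 0.05 or less in the authors' deposited table. In paired-end libraries none of the 113 members the authors could test was called, beside 0.212% of all tested genes. In single-end libraries 1 of 81 tested members was called, in the higher direction, beside 0.122% of all tested genes called in either direction and 0.0684% called higher. The other 77 and 109 members were too low for the authors to test. With an unadjusted p under 0.05 in place of q, 2 of 113 members passed in paired-end libraries, both lower in HC125, beside 1.28% of all tested genes in either direction and 0.351% lower. In single-end libraries 2 of 81 passed, beside 2.39% of all tested genes.

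fbxa-192 (WBGene00010212) lies on the minus strand of chromosome V, at V:17640672-17650522 in the files. Its values were 12.4 FPKM in HC125 and 30.02 FPKM in N2 in paired-end libraries, and 21.05 FPKM in HC125 and 6.55 FPKM in N2 in single-end libraries. HC125 thus held the lower value in the first and the higher value in the second. Among the 190 members it ranked 17th by level in HC125 and 7th in N2 in paired-end libraries, and 5th and 16th in single-end libraries. The ratio of HC125 over N2 was 0.414 (95% interval 0.201 to 0.854) in paired-end and 3.21 (2.31 to 4.47) in single-end libraries. In the authors' deposited tables it had p = 0.00105 with q = 0.283 in paired-end libraries, and p = 5e-05 with q = 0.0411 in single-end libraries. The lower paired-end value therefore did not pass as a call, whereas the higher single-end value did.

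The difference between experiments was then set against its error for every gene. The log2 ratio of fbxa-192 was -1.27 ± 0.53 (implied SE) in paired-end and 1.68 ± 0.24 in single-end libraries. Single-end minus paired-end gave 2.96 ± 0.59, with an adjusted p of 0.00572 by a z test on the implied errors with Benjamini-Hochberg adjustment over 12921 genes. It was the 1 gene called among these, or 0.00774%. The gene was examined because its opposite ratios were already known, so the test is a description of its size and no independent support. Of 79 members with an error in both tables, fbxa-192 was the 1 with an unadjusted p under 0.05, beside 0.317% of all genes. The next smallest p among the members was 0.342, for fbxa-143, with a difference of -1.18 ± 1.24. Over all genes, 0.317% is far below the share that a limit of 0.05 gives without true differences. The implied errors thus look too wide for this test, which could hardly flag another member. The large p of the other members is therefore no evidence that their ratios were alike in the 2 experiments. In data simulated with the implied errors as noise, the adjusted test recovered 0% of true log2 differences of 1 and 22% of those of 2. These rates belong to that simulated spread, which looks wider than the real spread. Differences of that size in other members could therefore be missed.

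Among members expressed in both tables, no other had opposite ratios of comparable size. On the log2(FPKM + 1) scale, which shrinks the ratios of low genes, fbxa-192 had -1.21 in paired-end and 1.55 in single-end libraries. Of the 59 members expressed in both tables, it was the 1 with ratios of at least 0.5 each way, or 1.69%, beside 0.345% of 11298 genes. This gene was chosen for its opposite ratios, so its count was fixed in advance. The 2 shares therefore say nothing on the family as a whole, and none of the other 58 members passed. The other 58 lay close to equal levels. In paired-end libraries the remaining expressed members ran from -0.41 for fbxa-71, at 1.60 FPKM in HC125 and 2.46 FPKM in N2, to 0.41 for fbxa-216, at 7.50 FPKM in HC125 and 5.39 FPKM in N2. In single-end libraries they ran from -0.52 for fbxa-77, at 1.48 FPKM in HC125 and 2.56 FPKM in N2, to 0.33 for fbxa-120, at 2.72 FPKM in HC125 and 1.96 FPKM in N2.

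**Figure D4:**
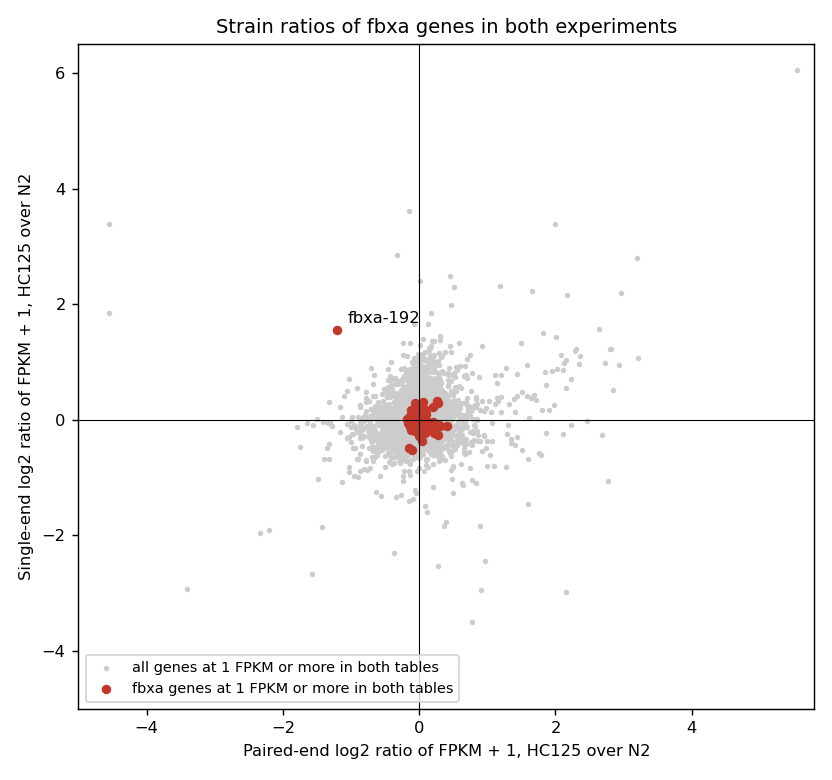
Log2 ratio of FPKM + 1, HC125 over N2, in the paired-end (horizontal) and single-end (vertical) experiment for genes at 1 FPKM or more in at least 1 strain of both tables. Red points are the 59 F-box A genes and grey points the other genes of the 11298, and fbxa-192 at -1.21 and 1.55 stands apart from the red points around 0.

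The members as a list lay near equal levels in the strains. The median log2(FPKM + 1) ratio of expressed members was 0.04 in paired-end libraries (quartiles -0.07 and 0.10), with 49 members higher and 40 lower in HC125, beside a median of -0.03 over all expressed genes. In single-end libraries it was -0.06 (quartiles -0.13 and 0.10), with 24 higher and 35 lower, beside -0.04. Across the 59 members Pearson's r of the 2 experiments' ratios was -0.54, but it was 0.09 over the 58 without fbxa-192, so the negative value rested on that 1 gene. Spearman's rho was -0.01 with it and 0.04 without it. Over all 11298 genes r was 0.20 and rho 0.09. These correlations are across genes and are given as descriptions. The implied errors limit what could be seen, with a median of 0.84 for tested members in paired-end and 0.62 in single-end libraries on the log2 scale, beside 0.66 and 0.40 over all tested genes.

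The 2 other members past the unadjusted limit were low. fbxa-39 had 0.151 FPKM in HC125 and 0.640 FPKM in N2 in paired-end libraries, where the authors' deposited table gives p = 0.0379, and it was too low to test in single-end libraries, at 0.0675 FPKM in HC125 and 0.120 FPKM in N2. fbxa-26 had 0.788 FPKM in HC125 and 1.504 FPKM in N2 in single-end libraries, with p = 0.0499 in the authors' deposited table, and 2.80 FPKM in HC125 and 3.21 FPKM in N2 in paired-end libraries with p = 0.746. Both were lower in HC125 in each experiment. The 95% intervals of these ratios from the implied errors, 0.0415 to 1.35 for fbxa-39 and 0.224 to 1.22 for fbxa-26, include equal levels in spite of the deposited p. fbxa-39 also overlaps another annotated gene on its own strand.

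fbxa-192 has the longest span of the family. It covers 9851 bases, beside a median of 1571 and 8027 for the second longest. The annotation gives it 4 exons of 226, 84, 646 and 311 bases in the direction of transcription, with a coding length of 1203 bases. The intron before the last exon is 8177 bases long, and the others are 47 and 365 bases. No annotated protein-coding gene or pseudogene overlaps it on either strand. Non-coding RNA genes were left out of this check, also within the long intron. How reads fell on its exons was not analysed here.

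No other gene within 50 kb of fbxa-192 was called in either table. This window holds 30 genes besides fbxa-192, of which 6 were expressed in paired-end and 4 in single-end libraries, and 12 were listed at 0 in all 4 values. fbxa-108, the nearest member, lies 6323 bp away and had 17.4 FPKM in HC125 and 18.5 FPKM in N2, and single-end values of 9.70 FPKM in HC125 and 8.49 FPKM in N2. dgat-2, a gene named for diacylglycerol acyltransferase, lies 9782 bp away and had 9.91 FPKM in HC125 and 15.2 FPKM in N2, and single-end values of 11.8 FPKM in HC125 and 12.3 FPKM in N2, with p = 0.142 for the paired-end difference in the authors' deposited table. ztf-25, named as a zinc finger transcription factor, lies 37720 bp to the other side and had 11.5 FPKM in HC125 and 11.2 FPKM in N2, and single-end values of 10.7 FPKM in HC125 and 10.03 FPKM in N2. Y6G8.2, the fourth neighbour expressed in single-end libraries, lies 41742 bp away and had 1.52 FPKM in HC125 and 1.42 FPKM in N2, and single-end values of 1.001 FPKM in HC125 and 0.560 FPKM in N2 with p = 0.0771 in the authors' deposited table. dgat-2 thus had its lower value in HC125 in paired-end libraries and Y6G8.2 its higher value in HC125 in single-end libraries, the directions of fbxa-192 there. fbxa-108 had both directions of fbxa-192, by small log2(FPKM + 1) ratios of -0.09 in paired-end and 0.17 in single-end libraries. The authors' deposited tables give it p = 0.827 and p = 0.476. None of these neighbours passed the unadjusted limit.

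**Figure D5:**
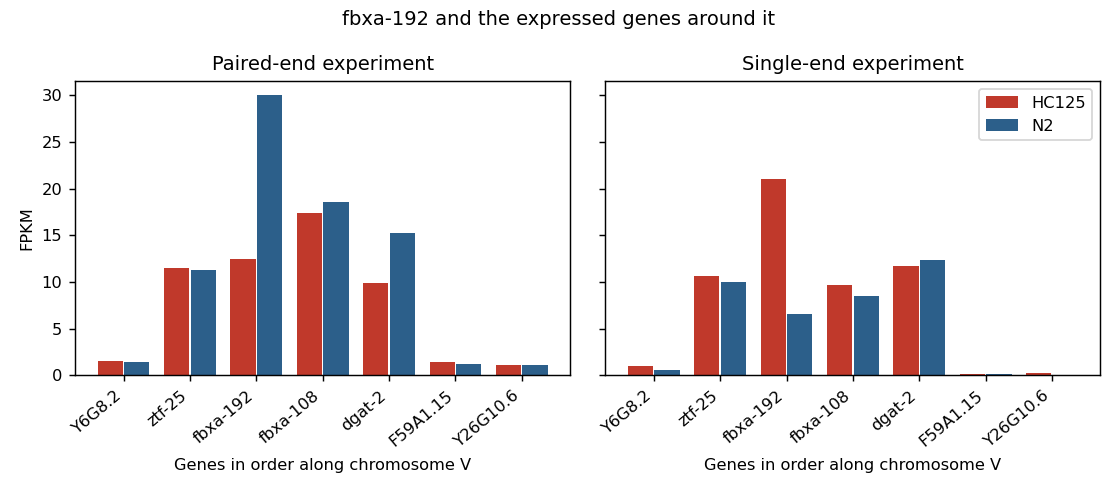
FPKM of fbxa-192 and the expressed genes within 50 kb of it (red bars HC125, blue bars N2), in the paired-end and single-end experiments, each value pooled over 2 libraries. fbxa-192 has 12.4 FPKM in HC125 and 30.02 FPKM in N2 with paired-end reads, and 21.05 FPKM in HC125 and 6.55 FPKM in N2 with single-end reads, while the bars of fbxa-108 differ little between strains.

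The genes closest to fbxa-192 in their pair of ratios lay outside the family. By Euclidean distance over the 2 log2(FPKM + 1) ratios among 11298 genes, the nearest was Y47H9C.12 at 0.82, with 1.78 FPKM in HC125 and 3.55 FPKM in N2, and single-end values of 1.42 FPKM in HC125 and 0.306 FPKM in N2. R10D12.7 followed at 0.87, C38C10.6 at 0.94, nspc-19 at 0.97 and F38E9.6 at 1.00. nspc-19 was the most abundant of these, with 11.1 FPKM in HC125 and 14.97 FPKM in N2, and single-end values of 24.6 FPKM in HC125 and 11.8 FPKM in N2. No F-box A gene was among the 5.

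Some markers of cell types differed between the strains too. Of 31 major sperm protein genes, 30 had a higher value in HC125 in single-end libraries, where their summed FPKM was 664 in HC125 and 328 in N2. In paired-end libraries 24 of 31 were higher, with sums of 3044 FPKM in HC125 and 2816 FPKM in N2, and 1 of the list, msp-74, was listed at 0 in all 4 values. No sperm gene was called at q of 0.05 or less, but in single-end libraries 19 of 28 tested had an unadjusted p under 0.05 and a higher value, beside 1.22% of all tested genes, and the median log2(FPKM + 1) ratio of the 28 expressed was 0.99. The body wall myosin gene unc-54 was called higher in single-end libraries, at 341 FPKM in HC125 and 125 FPKM in N2. In paired-end libraries it had 208 FPKM in HC125 and 168 FPKM in N2. The other body wall myosin gene listed, myo-3, differed little, at 8.15 FPKM in HC125 and 7.48 FPKM in N2 in single-end libraries. Its paired-end values were 15.2 FPKM in HC125 and 16.1 FPKM in N2. The pharyngeal myosins were called lower in paired-end libraries, with myo-1 at 3.47 FPKM in HC125 and 14.4 FPKM in N2 and myo-2 at 2.56 FPKM in HC125 and 9.12 FPKM in N2, at q of 0.05 or less in the authors' deposited table. In single-end libraries myo-1 had 4.10 FPKM in HC125 and 4.59 FPKM in N2, and myo-2 had 3.40 FPKM in HC125 and 3.34 FPKM in N2. Thus unc-54 and most sperm genes had a higher value in HC125 in both experiments, whereas fbxa-192 was higher in single-end libraries only. The genes myo-1 and myo-2 were lower in paired-end libraries, where fbxa-192 was lower too, and differed little in single-end libraries. Some cuticle collagens were called higher in HC125 in the experiment where fbxa-192 was lower. In paired-end libraries 10 of 112 tested collagens were called higher and 0 lower, beside 0.179% of all tested genes called higher. At an unadjusted p under 0.05, 33 were higher and 0 lower, beside 0.926% of all tested genes. Of the 95 expressed, 65 had a higher and 30 a lower value, and 42 (44.2%) lay beyond 0.5 on the log2(FPKM + 1) scale, beside 4.47% of all expressed genes. The sum over all 157 was 28436 FPKM in HC125 and 29097 FPKM in N2. In single-end libraries none was called, and 36 of 85 expressed collagens had a higher and 49 a lower value. At an unadjusted p under 0.05, 10 of 101 tested were higher there and 1 lower, beside 1.22% of all tested genes higher. Of the 85 expressed, 18 (21.2%) lay beyond 0.5, beside 5.54% of all expressed genes. The single-end sum was 47079 FPKM in HC125 and 54804 FPKM in N2. Germline, intestine and neuron markers differed less in sum than the sperm genes did in single-end libraries. Summed over 4 germline markers, FPKM was 1203 in HC125 and 1205 in N2 for paired-end libraries, and 856 in HC125 and 944 in N2 for single-end libraries. Over 7 intestine markers it was 2491 in HC125 and 2624 in N2, and single-end 5623 in HC125 and 6374 in N2. Over 4 neuron markers it was 190 in HC125 and 198 in N2, and single-end 118 in HC125 and 104 in N2. The part of these markers in the result for fbxa-192 was not tested.

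The partners through which F-box proteins act were expressed far more often than the family itself. Of 27 SKR adaptors, cullins and RING proteins asked for, 25 were found, and 24 were expressed in paired-end and 23 in single-end libraries. None was called, and no p in the authors' deposited tables was below 0.240 for these genes. The adaptor skr-1 had 289 FPKM in HC125 and 283 FPKM in N2, and single-end values of 322 FPKM in HC125 and 346 FPKM in N2. The cullin cul-1 had 60.9 FPKM in HC125 and 60.1 FPKM in N2, and single-end values of 62.0 FPKM in HC125 and 64.9 FPKM in N2. The RING protein gene rbx-1 had 359 FPKM in HC125 and 370 FPKM in N2, and single-end values of 704 FPKM in HC125 and 688 FPKM in N2. As a list the partners had ratios on opposite sides of equal levels in the experiments, all within 0.5 on the log2(FPKM + 1) scale. In paired-end libraries 17 expressed partners had a higher and 7 a lower value in HC125, with a median of 0.09, and in single-end libraries 3 had a higher and 20 a lower value, with a median of -0.15. In paired-end libraries fbxa-215 stood near skr-1, and fbxa-101 and fbxa-210 near cul-1. F-box genes with known roles were also abundant, with lin-23, which restrains cell division, at 93.2 FPKM in HC125 and 97.8 FPKM in N2, and single-end values of 46.4 FPKM in HC125 and 47.9 FPKM in N2. The gene sel-10, which acts on Notch signalling, had 113 FPKM in HC125 and 120 FPKM in N2, and single-end values of 91.7 FPKM in HC125 and 93.0 FPKM in N2.

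The members tied to the intracellular pathogen response were below 1 FPKM, while some of their partners were well expressed. This response to microsporidia, virus and proteotoxic stress uses a ligase of CUL-6, the adaptors SKR-3, SKR-4 and SKR-5, and the F-box proteins FBXA-75 and FBXA-158. fbxa-75 was listed at 0 in all 4 values. fbxa-158 had 0.0768 FPKM in HC125 and was listed at 0 in N2, with single-end values of 0.0172 FPKM in HC125 and 0.0393 FPKM in N2. fbxa-182, also listed with these genes, had 0.589 FPKM in HC125 and 0.540 FPKM in N2, and single-end values of 0.728 FPKM in HC125 and 0.587 FPKM in N2. None of the 3 was expressed. Among the partners, skr-3 had 35.8 FPKM in HC125 and 33.6 FPKM in N2, and single-end values of 22.3 FPKM in HC125 and 24.2 FPKM in N2. The adaptor skr-4 had 12.2 FPKM in HC125 and 15.5 FPKM in N2, and single-end values of 7.06 FPKM in HC125 and 8.14 FPKM in N2. These 2 adaptors lay above the medians of all genes in both experiments, while skr-5 lay below them. cul-6 lay slightly above the paired-end medians of 3.26 FPKM in HC125 and 3.28 FPKM in N2. It lay below the single-end medians of 1.66 and 1.67 FPKM. cul-6 had 3.58 FPKM in HC125 and 3.67 FPKM in N2, and single-end values of 0.883 FPKM in HC125 and 1.02 FPKM in N2, while skr-5 had 1.81 FPKM in HC125 and 1.27 FPKM in N2, and single-end values of 0.133 FPKM in HC125 and 0.323 FPKM in N2. The regulators of the response, pals-22 and pals-25, listed as C29F9.1 and T17A3.2, were expressed in both experiments. In paired-end libraries pals-22 had 4.996 FPKM in HC125 and 5.20 FPKM in N2, and pals-25 had 6.73 FPKM in HC125 and 6.41 FPKM in N2. In single-end libraries pals-22 had 2.78 FPKM in HC125 and 3.42 FPKM in N2, and pals-25 had 5.08 FPKM in HC125 and 5.06 FPKM in N2. Of the 16 genes of this list 6 and 5 were expressed and none was called or, in the authors' deposited tables, had an unadjusted p under 0.05.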

How the data were processed

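The authors deposited FPKM, 1 value per strain and experiment, and TopHat2 2.0.1 and Cufflinks 2.2.1 are named per the submitters' processing notes. The build was not given in the sources used here. The table layout is that of Cuffdiff, per the file headers. The test statistic, a score per gene, and the p-value and q-value were also deposited by the authors. FPKM are scaled to length and depth, so no depth, counting interval or spread between libraries can be given. No label says whether replicates were separate cultures, so p-values may measure technical spread. Overlaps were sought with protein-coding genes and pseudogenes only. Without strand, reads of 17 members cannot be told from those of such a gene on the other strand in the paired-end experiment. Near-identical members can share reads in both experiments.

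Ratios are HC125 over N2, on FPKM or on log2(FPKM + 1). The error of a log2 ratio was that ratio divided by the test statistic, and 95% intervals and z tests rest on it and a normal approximation. The z test was first tried on data simulated from the implied errors, so those errors themselves were not checked. In the real data 0.317% of genes had an unadjusted p under 0.05 in the z test. That is far fewer than the limit gives without true differences, so the errors look too wide. Of 50 genes given each true log2 difference, it recovered 0% at 1, 22% at 2, 60% at 3 and 82% at 4. File starts count from 0, so 1 was added. Of 20541 identifiers, 20194 are in the WBcel235 annotation, which gave biotypes, strands and exons. One identifier listed as fbxa-40 carries the name fbxa-41 there. Python 3.11.15, pandas 2.3.3, numpy 2.4.6 and scipy 1.17.1 were used.

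The members and all lists were chosen with earlier results of these data known. Named genes are fbxa-192, members with q of 0.05 or less or an unadjusted p under 0.05, the 8 of highest mean FPKM, members with opposite ratios, 3 pathogen response members, the position neighbours of fbxa-192 and the 5 genes nearest to it in ratios. Nearness in protein sequence was not used. Members named for group membership, range ends or the 1 FPKM limit were chosen after their values were seen. sid-1 was added to the lists as a check. Alternatives changed the FPKM limit, pseudocount, q limit, error, centring and gene set.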

Additional observations from a re-analysis of the deposited data

Results flagged for a closer look

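The strain ratio of fbxa-192 had opposite directions in the 2 experiments, and the gene was examined for that reason, so the test of the difference runs on the values that chose it and gives no independent support. Single-end minus paired-end, its log2 ratio differed by 2.96 ± 0.59, and over 12921 genes the Benjamini-Hochberg adjusted p was 0.00572 in a z test with errors from the test statistics. The experiments also differed in kit, in single or paired reads, in strand information and in the libraries themselves, and these cannot be told apart.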

How the results depend on the processing

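Of 35 alternatives over 9 results, 27 kept the direction and the side of the threshold or stayed within the stated range, 8 moved a value and none reversed a direction. At an unadjusted p under 0.05, by the authors' deposited tables, 2 members passed with paired-end and 2 with single-end reads. At q of 0.01 or less 0 passed with single-end reads, so fbxa-192 was no longer called. The expressed share became 72.6% and 62.1% at 0.1 FPKM, and 17.4% and 11.1% at 5 FPKM, with paired-end and single-end reads. Counting any opposite sign, 33 of 59 members (55.9%) had opposite ratios, beside 44.6% of all genes. The settings without pseudogenes, without overlapping genes and without fbxa-192 were added after seeing the data. No paired analysis was possible because the tables hold 1 pooled value per strain and experiment, and for the same reason no library could be left out. The unknown depth limits every statement on members near 0.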

Other observations

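Other adaptor families were also expressed in part. At the limit of 1 FPKM, of 109 fbxb genes 44 (40.4%) were expressed with paired-end and 53 (48.6%) with single-end reads, and of 51 fbxc genes 19 (37.3%) and 20 (39.2%). The MATH-BTB adaptor genes named bath were expressed in 30 of 37 cases (81.1%) and 25 (67.6%), and the math genes in 17 of 47 (36.2%) and 13 (27.7%). The fbxb genes had a median of 0.820 FPKM in HC125 and 0.724 FPKM in N2 with paired-end reads, and 0.780 FPKM in HC125 and 0.955 FPKM in N2 with single-end reads. The fbxc median was 0.591 FPKM in HC125 and 0.494 FPKM in N2, and single-end 0.499 FPKM in HC125 and 0.451 FPKM in N2. The median log2(FPKM + 1) ratio of the expressed fbxb genes was 0.13 with paired-end reads (32 higher and 12 lower in HC125) and -0.11 with single-end reads (15 higher and 38 lower). For fbxc it was 0.04 (12 higher and 7 lower) and -0.09 (6 higher and 14 lower). No fbxb or fbxc gene had opposite ratios of 0.5 or more each way. None of these genes was called at q of 0.05 or less in the authors' deposited tables, beside 0.212% and 0.122% of all tested genes. At an unadjusted p under 0.05 in those tables, 1 of 35 tested bath genes was higher with paired-end reads, beside 0.926% of all tested genes. With single-end reads 1 of 27 tested fbxc genes passed, lower in HC125, beside 2.39% of all tested genes in either direction. The differences between families were not tested.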
